A study of Drosophila melanogaster with 2 samples.

Results

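Autosomal intronic peaks of schlank tagged with GFP comprised 751 of the 2790 thresholded ChIP-seq peaks (26.9%, 95% Wilson interval 25.3 to 28.6). Each has its summit, the position of highest signal, inside a gene, in no annotated exon, on a chromosome other than X, and over 500 bp from every annotated transcription start site (TSS). The thresholded set is the optimal set from IDR, a method that keeps peaks by their reproducibility between replicates. They were compared with 9823 candidate peaks of the same class in the pooled list of both replicates, none of which overlapped a thresholded peak. The members made up 7.10% of these 10574 summits. Over all classes, the pooled list held 30000 candidates against 2790 thresholded peaks, and 10673 of those candidates were of this class. Autosomal introns were thus a larger part of the candidates than of the thresholded peaks. At promoters, 1472 thresholded peaks stood beside 6854 candidates that overlapped none. All 751 stood in the pooled list with the same position and signal. The weakest had a signal of 121.363, and the strongest candidate of the comparison 121.124. Pooled signal thus separates the members from the comparison completely, so the signals below describe the peaks and test nothing.

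The chromatin was from whole Drosophila melanogaster embryos collected at 0 to 24 h, males and females together. They carried a transgene that stably expresses schlank with GFP at its C terminus, and both samples, the 2 biological replicates of this 1 group, share it. No other condition was studied, so the comparison is between sites and not between treatments, and no test over samples exists. As antibody target the labels of both samples give schlank, but their free-text description calls them input controls, and separate controls were not used here. Whole embryos of this age range mix all tissues and stages, so a peak cannot be assigned to a cell type.

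Introns of fly genes hold many enhancers, stretches of DNA that bind transcription factors and raise transcription of a promoter at a distance, often the promoter of the gene that contains them. First introns lie nearest to the promoter and are known to be rich in such elements. The schlank protein is a ceramide synthase, an enzyme of the endoplasmic reticulum that joins a fatty acid to a sphingoid base, and it also carries a homeodomain, a fold that many developmental regulators use to bind DNA. Homeodomains commonly recognise sequences with the core TAATTA. Forkhead factors, a family with a winged-helix fold, commonly recognise TGTTTAC, and GATA factors recognise GATAAG.

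The sequences around several of the strongest intronic summits are shown because the sequence results below turn on them. Each is 101 bases of the plus strand of the Release 6 reference assembly (dm6), centred on the summit, and is reference sequence rather than sequence read from the embryos. Capitals mark TAATTA, and TGTTTAC or its reverse complement GTAAACA. The summits of CG11050 (chr2L:6612664-6612764), ush (chr2L:481044-481144) and CG9663 (chr2L:3302131-3302231) are the 3 strongest. Lk6 (chr3R:11761002-11761102), Trl (chr3L:14759459-14759559), Csk (chr3R:11649605-11649705) and SCaMC (chr3L:12407102-12407202) are, after CG9663, the strongest with TGTTTAC within 100 bp of the summit.
CG11050: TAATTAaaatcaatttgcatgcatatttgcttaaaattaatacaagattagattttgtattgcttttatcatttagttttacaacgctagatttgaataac
ush: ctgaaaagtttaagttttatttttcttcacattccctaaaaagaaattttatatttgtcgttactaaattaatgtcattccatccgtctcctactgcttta
CG9663: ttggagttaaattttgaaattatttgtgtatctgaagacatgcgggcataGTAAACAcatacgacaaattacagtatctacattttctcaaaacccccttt
Lk6: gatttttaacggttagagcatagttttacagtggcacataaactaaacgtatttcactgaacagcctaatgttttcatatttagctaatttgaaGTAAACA
Trl: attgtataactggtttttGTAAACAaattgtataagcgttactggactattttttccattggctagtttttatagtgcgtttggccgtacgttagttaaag
Csk: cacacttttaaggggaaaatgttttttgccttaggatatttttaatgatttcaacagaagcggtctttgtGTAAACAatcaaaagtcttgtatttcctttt
SCaMC: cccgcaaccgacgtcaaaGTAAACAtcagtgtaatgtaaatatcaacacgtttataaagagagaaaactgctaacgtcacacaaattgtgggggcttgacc
GC content ran from 21.8% at CG11050 and 27.7% at ush to 41.6% at SCaMC, the one stretch above the 40.2% mean of all intronic windows. CG9663 has the forkhead-type sequence 3 bp from its summit and Lk6 47 bp away, close to the edge of the printed stretch.

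The strongest intronic peaks stood high in both replicates. CG11050 (FBgn0031836) had a signal of 689 in replicate 1, 1857 in replicate 2 and 2550 in the pooled list, and its summit lay in an intron of 140 bp, 1027 bp from the nearest TSS. The signal is the strength that the authors' peak caller gave each peak, its scale is not stated, and its size is not compared between lists. At ush, which encodes u-shaped, a cofactor of GATA factors, the values were 612, 1664 and 2296. At CG9663 they were 301, 1493 and 1805. At Lk6, a kinase that phosphorylates the translation factor eIF4E, they were 422, 1371 and 1803. These 4 summits ranked between 3 and 7 in replicate 2 and between 2 and 40 in replicate 1, so CG9663 stood lower in one list than in the other. The rest of the strongest 8 were sbb, a nuclear co-repressor (431, 952 and 1374), Trl, the GAGA factor of chromatin (556, 787 and 1336), CG9837 (312, 873 and 1183) and HmgZ, an HMG box protein (402, 690 and 1096).

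The remaining hosts of the 25 strongest peaks covered several functions, with pooled signals from 920 down to 571. Regulators of chromatin and transcription were Adf1, a Myb-like factor (834), wde, a cofactor of the histone methyltransferase Eggless (755), and trx, the trithorax histone methyltransferase (652). Kinases and signalling genes were chif, a partner of the replication kinase Cdc7 (920), for, a cGMP-dependent kinase (878), Csk, an inhibitor of Src kinases (809), Hipk (609) and S, which encodes Star, needed to export ligands of the EGF receptor (613). Membrane and structural genes were SCaMC, a mitochondrial carrier (666), Dys, dystrophin (640), and KCNQ, a potassium channel (635). CG32486, CG12769, CG9135, Reph, osp and mub completed the group. All 25 had a candidate within 200 bp in both replicates and were among the 2790 strongest candidates of each. Of them, 14 lay in the first intron of the Ensembl canonical transcript, 18 within 2000 bp of a TSS, and 6 had TGTTTAC within 100 bp.

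At the lower edge, the weakest 3 members were in Prps (signal 121.832), AcCoAS, acetyl-CoA synthetase (121.81), and CG6966 (121.363). The strongest 3 intronic candidates outside the thresholded set were in Cerk, ceramide kinase (121.124), bun (121.06) and CG18135 (120.855), so the sets meet without a gap. At the TSS limit, pAbp (512 bp) and CG31523 (518 bp) were the nearest members, while the thresholded intronic peaks in CG10365 (497 bp) and jar (493 bp) fell inside the limit.

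Most intronic peaks had support in both replicates, but their strength there was related only loosely. A candidate summit lay within 200 bp in both replicate lists for 713 of 751 (94.9%, 93.1 to 96.3), in replicate 2 only for 34 and in replicate 1 only for 4, and none lacked both. These shares are not independent of the selection, since both replicates fed the pooled list. They cover members only and are not set beside the same shares over all thresholded peaks, so they do not set this class apart. Among the 2790 strongest candidates of each replicate, 514 (68.4%) were found in replicate 1, 651 (86.7%) in replicate 2 and 429 (57.1%, 53.6 to 60.6) in both. The median summit lay 19 bp from the replicate 1 summit and 8 bp from that of replicate 2. Signals ran from 13.4 to 689 in replicate 1 with a median of 53.0, and from 29.3 to 1857 in replicate 2 with a median of 126. Across the 713 peaks, Spearman's rho was 0.334 and Pearson's r of log2 signal 0.495, values that describe sites chosen by pooled signal and not independent replicates. In 32 cases, members lay so close together that they shared a replicate candidate, as did the second member in CG9663 (pooled signal 136) with the strong one; over the 682 with candidates of their own rho was 0.328. The strongest member with no replicate 1 candidate was in sba (signal 328 in replicate 2), and CycE, which encodes cyclin E, was among the 4 with none in replicate 2 (113 in replicate 1).

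**Figure D1:**
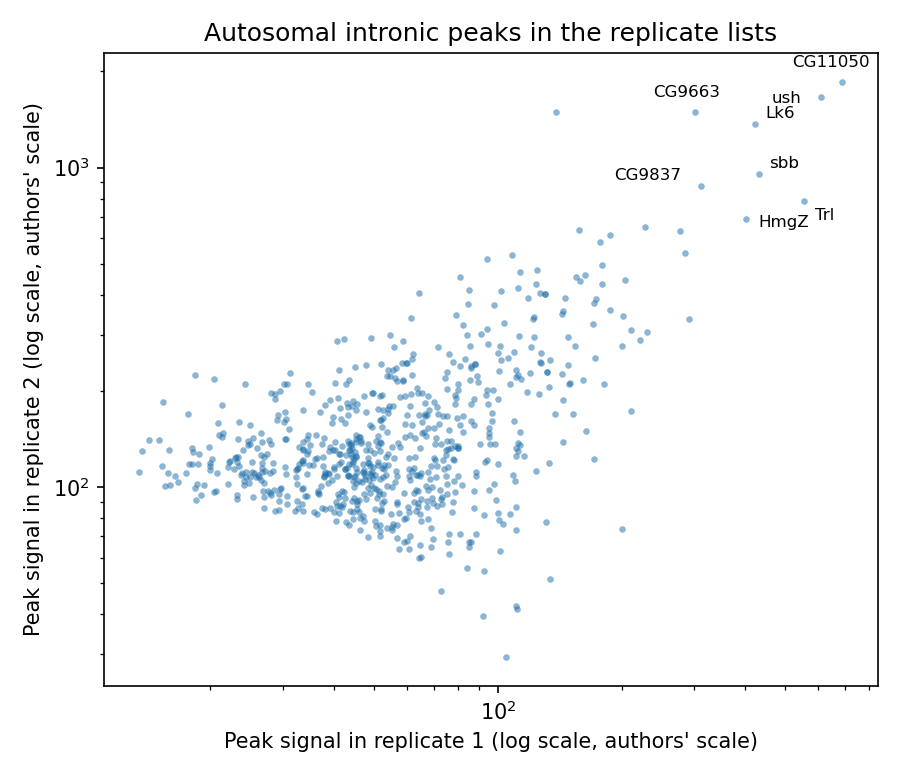
Signal of each of the 713 intronic peaks with a candidate in both replicates, replicate 1 on the x axis and replicate 2 on the y axis, both logarithmic and in the peak caller's units, with the 8 strongest hosts named. The named peaks are high in both lists, while below about 100 in replicate 1 the points form a broad cloud; the point left of CG9663 is a second member that shares its replicate 2 candidate.

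The members were spread over the large autosomal arms, with 173 on 2L, 186 on 2R, 161 on 3L and 231 on 3R. Relative to the intronic sequence that meets the rule, 42.6 Mb in all, this is 20.2, 20.1, 15.5 and 16.7 per Mb. Relative to candidates, the share was 8.19% on 2R (7.13 to 9.39), 7.40% on 3R, 7.15% on 2L and 5.94% on 3L (5.11 to 6.89), and the interval of 3L lay below that of 2R. On chromosome 4, 0 of 51 candidates were members, which allows a share of up to 5.88%. Wilson intervals here and below cover the counting of sites only. No member summit lay in an annotated transposable element, against 37 of 9823 in the comparison (0.377%), and 0 of 751 allows up to 0.399%. Soft-masked repeat sequence underlay 16.0% of member summits and 15.2% of other candidates (difference 0.79 percentage points, Newcombe interval -1.76 to 3.67), against 22.8% of windows spaced along all eligible introns. Against only the 751 strongest candidates outside the thresholded set the difference turned to -5.46.

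Intronic peaks lay closer to start sites than other intronic candidates, even beyond the 500 bp limit. The median distance was 2096 bp, against 3487 bp. It was graded along the candidate list and did not step at the threshold. The stronger 50% of members had 1896 bp, the weaker 50% had 2327 bp and the 751 candidates next in signal had 2532 bp. Further down it was 2826, 3658 and 3977 bp. Of candidates 500 to 1000 bp from a TSS, 11.7% (10.1 to 13.4) were members, then 9.37% up to 2000 bp, 6.87% up to 5000 bp, 5.40% up to 10000 bp, and 3.08% (2.36 to 4.01) beyond that. The share therefore fell at every step. The most distant member, in hth, which encodes a homeodomain partner of Hox proteins, lay 49854 bp from a TSS with a signal of 131.

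First introns held 368 of the 751 peaks (49.0%, 45.4 to 52.6) and 38.7% of the other candidates, a difference of 10.3 percentage points (Newcombe interval 6.58 to 14.0). Second introns held 24.0% and 25.1%. Introns 4 and later held 7.19% against 14.4%. In the strongest sites of each replicate alone, the first-intron share was 49.5% in both, against 36.9% and 38.2% of their other candidates. Distance and intron number go together, and within bins of distance the member share in first introns was 56.3% against 48.9% at 500 to 1000 bp, 41.3% against 41.0% at 2000 to 5000 bp, and 50.9% against 24.8% beyond 10000 bp. Against only the 751 strongest candidates outside the thresholded set, the difference was 3.60 percentage points.

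The summits sat in a dip of GC content. Within 100 bp, members had 38.6% ± 6.94 (SD across 751 sites) and other candidates 42.5% ± 6.86 (SD across 9823 sites), a difference of -3.99 percentage points. Windows along all eligible introns had 40.2% ± 7.84 (SD across 85178 windows), so members lay below the intron average and the other candidates above it. The difference was -3.78 in replicate 1, whose sites were poorer in GC (35.8% and 39.6%), and -3.67 in replicate 2 (39.9% and 43.6%). In 21-bp windows, mean GC of members was 36.3% at the summit, 41.2% at 100 bp to its left and 40.3% at 100 bp to its right, while the comparison had 42.8%, 42.5% and 42.3% there. The dip was therefore local, and within 250 bp the difference was -1.36. Within 100 bp, the 751 strongest candidates outside the thresholded set had 40.04% ± 6.78, a difference of -1.47.

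**Figure D2:**
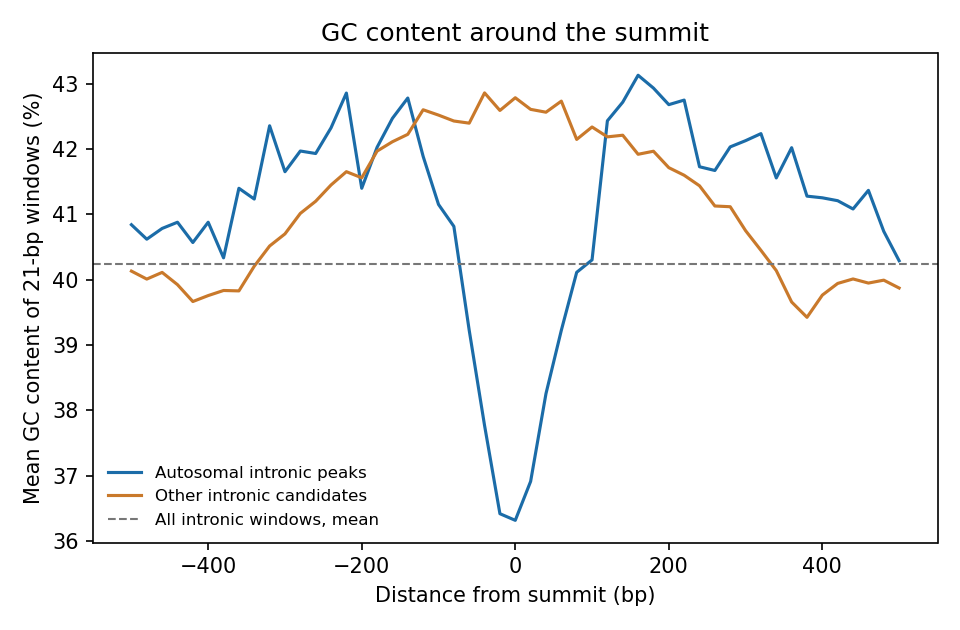
Mean GC content in percent of 21-bp windows (y axis, not starting at 0) by distance from the summit in bp (x axis) for 751 intronic peaks and 9823 other intronic candidates, with the mean of all intronic windows dashed. The peaks fall to 36.3% at the summit, where the other candidates have 42.8%.

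Of 28 sequences searched on both strands, the forkhead-type sequence TGTTTAC differed most in percentage points. It occurred within 100 bp of 112 of 751 intronic summits (14.9%, 12.5 to 17.6) and of 6.88% of other intronic candidates, a difference of 8.03 percentage points (Newcombe interval 5.61 to 10.8). With the comparison weighted to the members' GC content the share was 7.32%, and 4.40% of all 85178 intronic windows of this length held it. Each replicate gave the same direction by itself, with 16.0% against 6.37% in replicate 1 and 13.9% against 7.06% in replicate 2. On 2L, 2R, 3L and 3R the shares were 14.5%, 14.0%, 13.7% and 16.9% of members, and 6.41%, 7.10%, 6.86% and 7.23% of candidates.

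Copies gathered at the summit. Per 1000 summits, members had 65.2 copies in the 50 bp to the left of the summit and 62.6 in the 50 bp to the right, where the comparison had 20.3 and 21.1. In the other bins out to 250 bp the values ran from 7.99 to 28.0 for members and from 12.4 to 17.3 for the comparison. The median distance of the nearest copy to the summit was 23 bp. In the strong peak of Star it was 2 bp, and in Mef2, a muscle transcription factor gene (signals 144, 356 and 503), 11 bp. Of the 112, 18 had at least 2 copies, and Pde11, a phosphodiesterase gene, and klar, which encodes a protein that positions nuclei and organelles, had 3 each, a pair of hosts chosen after seeing their values.

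The share with TGTTTAC was graded along the candidate list and did not step at the threshold. It was 14.6% (11.4 to 18.6) in the stronger 50% of members, 15.2% (11.9 to 19.2) in the weaker 50%, and 12.5% (10.3 to 15.1) in the 751 candidates next in signal. Further down it was 8.09%, 6.57% and 5.31%. The difference from the 751 candidates just outside was 2.40 percentage points, and their intervals overlapped. Among members, the median pooled signal was 172 with a copy and 173 without. The GC content of members with a copy was 40.3%, and of those without it was 38.3%.

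**Figure D3:**
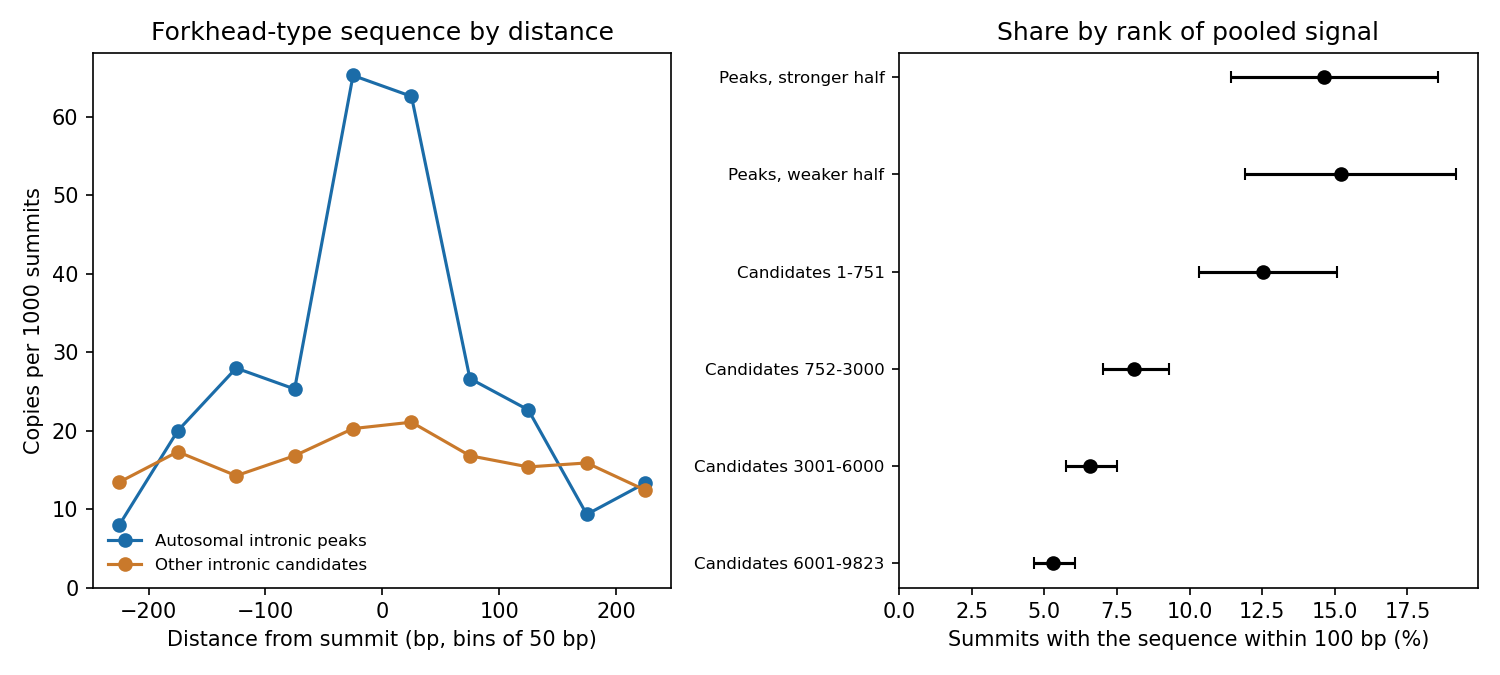
Left, copies of TGTTTAC per 1000 summits in bins of 50 bp (y axis) by distance from the summit in bp (x axis) for intronic peaks and other intronic candidates, with members reaching 65.2 beside the summit and the comparison 21.1. Right, percent of summits with the sequence within 100 bp (x axis, bars are 95% Wilson intervals) for members and for candidates by rank of signal, falling from 15.2% to 5.31%.

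Thresholded sites of other classes also held the sequence at higher shares than their candidates, with an interval of the difference that included 0 for intergenic sites. On X-linked introns it stood at 9.55% (6.33 to 14.2) of 220 members and 5.76% of candidates, at promoters at 8.83% (7.49 to 10.4) of 1472 and 6.41%, between genes at 6.92% (4.42 to 10.7) of 260 and 4.86%, and in exons at 11.5% (6.36 to 19.9) of 87 and 3.35%. The differences were 3.78 points (Newcombe interval 0.376 to 8.49) on X, 2.43 (0.952 to 4.08) at promoters, 2.07 (-0.506 to 5.86) between genes and 8.15 (2.97 to 16.6) in exons. Weighted to the GC content of each class, the candidates had 6.80%, 7.27%, 5.08% and 5.63% in that order. The interval of autosomal introns lay above those of promoters and intergenic sites and overlapped those of X-linked introns and exons. Whether the difference between peaks and candidates differs between the classes was not tested.

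The homeodomain core TAATTA was present at 116 of 751 summits (15.4%, 13.0 to 18.2) and at 12.2% of other candidates, a difference of 3.22 points. Weighted to equal GC content the comparison also had 15.4%, a difference of 0.05, and all intronic windows had 14.5%. That weighting uses the GC of the window that holds the sequence. Weighted by GC within 250 bp, an alternative added after the data were seen, the difference was 2.17 points. TAATGA, another homeodomain sequence, stood at 13.4% and 12.8%. Sequences of specific homeodomain families were less frequent at members, TTTATGG of the Caudal type with 5.19% against 7.19% and TGACAG of Homothorax with 5.59% against 8.72%, and weighting to equal GC left 7.19% and 7.60% in the comparison. Without replicate 2 the TTTATGG difference of -1.99 points was -3.77.

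GATAAG was found at 15.2% of summits (12.8 to 17.9) against 11.6%, and 12.0% with GC weighted. The 751 candidates next in signal had 17.2%, which is above the members, so this difference turned direction against them (-1.997 points). GAGAGAG, recognised by the GAGA factor, occurred at 5.59% against 3.14% (2.46% weighted), and CATATG, an E-box of the Twist type, at 9.45% against 7.30% (7.72% weighted). Within 50 bp of the summit these differences, 2.46 and 2.15 points, were 0.347 and 0.289. GCCATNTT of the Polycomb group protein Pho was less frequent, with 2.53% against 4.60%. TATCGATA, the Dref sequence, and CCGGAAGT of Ets factors occurred at 0 of 751, which allows up to 0.399%, against 0.366% and 0.336%. Over the 28 sequences, 8 were more frequent at members with GC weighted and in each replicate, 11 were less frequent in these and unweighted, and the Newcombe interval lay above 0 for 5 and below 0 for 3. All windows along introns held these sequences at 8.74% for GATAAG, 2.59% for GAGAGAG, 5.95% for CATATG, 4.41% for GCCATNTT, 6.39% for TTTATGG and 8.50% for TGACAG. A match describes letters in the window and is not a site of binding.

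**Figure D4:**
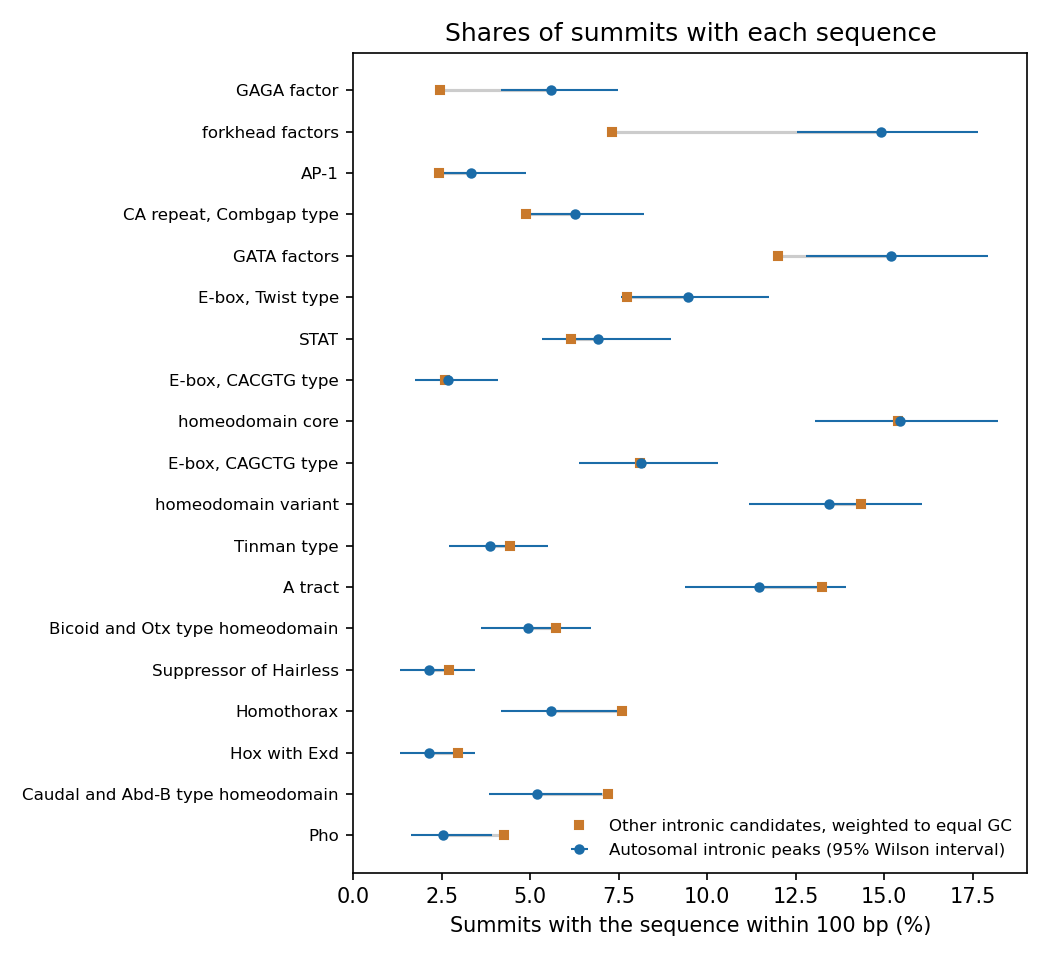
Percent of summits with a sequence within 100 bp (x axis) for 19 sequences present in at least 2% of either set, named by the factor type they are known for, with 95% Wilson intervals for the 751 peaks and squares for other candidates weighted to equal GC. Forkhead (14.9% against 7.32%) and GAGA factor (5.59% against 2.46%) lie to the right of their squares, the homeodomain core lies on its square, and Pho (2.53% against 4.27%) lies to the left.

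Hexamers were ranked by their GC-weighted ratio on the 359 members of chromosome 2 and then read on the 392 of chromosome 3. The comparison for chromosome 3 also held the candidates on chromosome 4. Of 1392 hexamers compared, the leading 5 were ACCCCC (ratio 2.01), ACACGG (1.95), ATGTAC (1.86), ACGCCA (1.83) and ACAGTG (1.82). On chromosome 3 the ratio was 1.51, 1.32, 1.201, 0.785 and 1.90 in that order, while the median over all hexamers was 1.00. ACAGTG, with its reverse complement CACTGT, was thus the one that kept its size. It stood at 20.9% of members against 11.5% on chromosome 2 and 19.6% (16.0 to 23.9) against 10.3% on chromosome 3. Both comparison shares are weighted to the members' GC content. Unweighted, 7.24% of all intronic windows held it. The printed stretch of Lk6 contains it in the letters acagtg. The hexamer TGTTTA within the forkhead-type sequence had ratios of 1.28 and 1.41.

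The peaks fell in 504 of the 2129 autosomal protein-coding genes that held an intronic candidate of the class (23.7%). They numbered 742 in such hosts, and 9 had none. Of these genes, 357 held 1 member and 147 held at least 2, together 385 members, and 273 members (36.4%) had another within 5 kb. A gene with more candidates held a member more often, 9.20% of genes with 1 candidate, 16.8% with 2 to 4, 34.7% with 5 to 9 and 62.8% with 10 or more. The share of candidates that were members did not rise, with 9.20%, 7.46%, 7.52% and 6.49% in that order.

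One gene stood out by number. shn, which encodes schnurri, a zinc finger protein that acts with Smad proteins to repress genes in Dpp (BMP) signalling, held 15 members among 35 candidates in its 58309 bp on 2R (11159086 to 11217394, plus strand). Their pooled signals ran from 125 to 335 with a median of 170, so none was among the strongest 25. The strongest, 25455 bp from the 5′ end, had 114 in replicate 1 and 218 in replicate 2. Its neighbour at 26741 bp had a pooled signal of 292 and 283 in replicate 2, with no candidate in replicate 1. Of the 15, 11 had a candidate in both replicates, and 6 were among the strongest of both. Summits at 36718 and 36961 bp shared a replicate 1 candidate (33.7), as did those at 43737 and 43955 bp (78.3). The 15 and the 11 therefore include summits that are not separate peaks in replicate 1. By the canonical transcript, 4 of the 15 lay in intron 1 and 11 in intron 2 of 7, and no member lay in the upstream 19 kb. Per 100 kb of eligible intron this is 34.9 members, against 54.2 in CG6191, a gene known only by its number, with 5 members, and 47.8 in CG3764, also with 5.

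**Figure D5:**
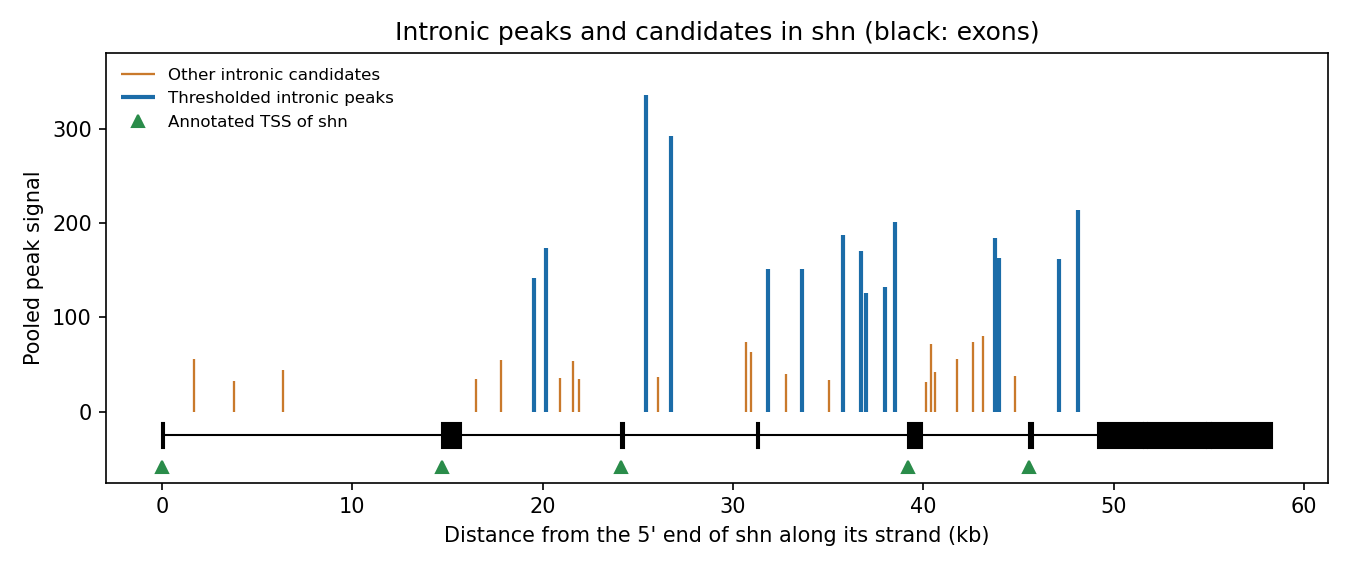
Pooled signal (y axis) of the 15 thresholded intronic peaks and 20 other intronic candidates of shn by distance from its 5′ end in kb (x axis), above its exons in black and its annotated start sites as triangles. Peaks spread from 19563 to 48111 bp and reach 335, with only weaker candidates upstream.

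Among the other hosts with most members, sbb held 7 (pooled signals 135 to 1374), tara, a trithorax group gene, 6 (130 to 508), simj, a subunit of the NuRD chromatin complex, 5 (159 to 372), and crp, the AP-4 transcription factor, 5 (175 to 409). Snoo, a Ski family co-repressor of BMP signalling, and bun, a TSC-22 leucine zipper protein, held 5 each, but in long introns with 5.99 and 7.11 per 100 kb, and bun had 61 further candidates. ush held 4 (151 to 2296). All members of sbb, simj, crp, CG6191 and ush had candidates in both replicates, and none of the 5 in bun was among the strongest of both.

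Counts for 12 gene lists are read against the 23.7% of all genes and the 7.10% of all candidate summits. Members are counted by summit, and some close neighbours, as in fra, brat and shn, shared a replicate 1 candidate. The candidate shares and their intervals take such summits as separate sites. For genes of receptor tyrosine kinase, JNK and insulin signalling, 13 of 28 genes with a candidate held a member (46.4%, 29.5 to 64.2), and 9.92% of their candidates were members (6.86 to 14.1). InR, the insulin receptor, was strongest (187 in replicate 1, 359 in replicate 2, 543 pooled), followed by aos, the secreted inhibitor of the EGF receptor (102, 250 and 349), and drk, the adaptor that links receptors to Ras (138, 169 and 307). For the Dpp, Wnt, Notch and Hedgehog pathways it was 10 of 23 genes (43.5%, 25.6 to 63.2) and 8.23% of candidates (5.72 to 11.7). The gene shn alone gave 15 of the 27 members and 35 of the 328 candidates, and without it 9 of 22 genes (40.9%) and 4.10% of candidates (2.36 to 7.02) remained, below the background. Beside shn these included mam, the Notch co-activator Mastermind (161, 216 and 390), and Dad, the inhibitory Smad (118, 198 and 325). By genes these 2 lists lay above the 23.7% of all genes, but their median gene held 7 and 9 candidates in that order. Of all genes with 5 to 9 candidates, 34.7% held a member, a share inside the intervals of both lists. By candidates the intervals of the whole lists held 7.10%.

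Nuclear receptor and ecdysone genes had a member in 8 of 15 (53.3%, 30.1 to 75.2), led by the receptors Hr3 (211, 310 and 515) and Eip75B (95.4, 143 and 256) and the kinase gene Eip63E (71.0, 177 and 250). By candidates their share was 5.33% (3.14 to 8.90), an interval that held 7.10%, and their median gene held 10 candidates. Of all genes with 10 or more candidates, 62.8% held a member. Genes of glia and blood cells had 5 of 10 (50%, 23.7 to 76.3) and 10.3% of candidates (5.70 to 17.9), an interval that held 7.10%. Here ush had the strongest peak and gave 4 of the 10 members, and 9.84% of candidates remained without it (4.59 to 19.8). Next were pnt, an Ets activator also on the receptor tyrosine kinase list (80.9, 156 and 241), and loco, a regulator of G proteins (59.4, 157 and 221). Epithelial, tracheal and cytoskeletal genes had 11 of 28 (39.3%) and 5.73% of candidates, including chic, profilin (93.4, 194 and 285), sim, a midline bHLH-PAS factor (94.5, 181 and 281), and crb, the apical determinant Crumbs (54.2, 170.5 and 232). Muscle genes had 5 of 13 (38.5%) and 5.74% of candidates, including Mef2, mbc, an activator of Rac in myoblast fusion (56.8, 215 and 267), and Msp300, a nesprin (131, 77.5 and 211). Polycomb, trithorax and insulator genes had 3 of 9 (33.3%) and 7.14% of candidates, namely Trl, trx and psq, a BTB domain factor (48.2, 136 and 183). Trl gave 3 of the 7 members, and 4.21% of candidates remained without it.

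Neuronal transcription factor genes had 8 of 26 (30.8%) and 5.48% of candidates, with brat (144, 187 and 339), bab1, a BTB domain protein (76.2, 260 and 336) and zfh1, a zinc finger homeodomain factor (75.2, 229 and 300) strongest. The protein of brat is a translational repressor and not a transcription factor, and without this gene, which held 3 of the 12 members, 7 of 25 genes (28%) and 4.5% of candidates remained. Patterning transcription factors, among them cad, Caudal (127, 246 and 370), hth (68.6, 106 and 174) and Antp, a Hox gene (45.9, 90.9 and 149), had 4 of 19 (21.1%) and 3.21% of candidates. Ion channel and synapse genes had 3 of 17 (17.6%) and 3.60% of candidates, namely Rgl, an activator of the GTPase Ral (93.1, 119 and 206), Ca-beta, a calcium channel subunit (54.1, 127 and 189), and Pka-C1, a protein kinase A catalytic subunit (26.6, 125 and 150.5), and 1.98% of candidates without Rgl. Axon guidance and adhesion genes had 5 of 31 (16.1%, 7.09 to 32.6) although their median gene held 8 candidates, and only 2.43% of their 288 candidates were members (1.18 to 4.93), an interval below 7.10%. Without fra, which held 3, the share was 1.45%. Their strongest were fra, the netrin receptor (134, 249 and 377), caps, a leucine-rich repeat protein (85.4, 276 and 364), and side, an immunoglobulin domain protein (33.6, 174 and 205). Of lipid and sphingolipid genes, the class schlank itself belongs to, 4 of 23 held a member (17.4%, 6.98 to 37.1), and 9.09% of their candidates were members (4.23 to 18.4). These were bmm, the Brummer triglyceride lipase, with 3 members (strongest 171, 325 and 509), Baldspot, a fatty acid elongase (154, 276 and 410), SREBP, a transcription factor of lipid synthesis genes (96.6, 171 and 274), and Acsl, an acyl-CoA synthetase (59.9, 80.0 and 132). Without bmm 3 of 22 genes and 5.17% of candidates remained (1.77 to 14.1).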

How the data were processed

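Peaks came from 2 biological replicates of schlank-GFP ChIP-seq, grouped by the antibody field. The authors deposited 1 candidate list per replicate and 1 pooled list, each with 30000 entries of peaks and background as input for IDR, and 1 thresholded set of 2790 peaks on dm6, per the file lists deposited with the libraries. The signal column is the authors' peak strength, on a scale that is not stated, and was used to describe peaks and rank them in their list. A −log10 q column, also deposited by the authors, was not used, since it has a ceiling in each list. Summits were placed by adding the deposited offset in bp to the start. Not given in the sources used here are the aligner, the peak caller and the threshold of IDR. Chromatin was sonicated to 200 to 800 bp, per the labels. Because the lists hold no read counts, depth is unknown, and nothing here measures variation between embryos beyond the values of the 2 replicates.

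Annotation was Ensembl release 115 for BDGP 6.54, transposable elements left out, and sequence the NCBI Release 6 assembly. A further 99 intronic candidates that overlapped a thresholded peak without being a member were left out. The host is the protein-coding gene whose span holds the summit, or of several the one with the nearest TSS of its own. A replicate supports a member if its list has a candidate summit within 200 bp. The values for a replicate alone take its 2790 strongest candidates in place of the thresholded set. Sequences were sought in the 201 bp around the summit, with GC bins of 5 percentage points for weighting and intronic windows every 500 bp. Intervals are 95% Wilson intervals for shares and Newcombe intervals for differences, and peaks were given no test. The share that a count of 0 allows is 3 divided by the number of sites. Hexamers in at least 5% of members on 2L and 2R were compared.

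Members, gene lists and sequences were chosen with earlier results of these data known. The genes named are the hosts of the 25 strongest members, the 10 hosts with most members, up to 3 genes per list with the strongest peak, and the genes at the edges; others (sba, CycE, Pde11, klar, Acsl and the genes at the TSS limit) were named after their values were seen. Of 461 listed genes, 443 matched the annotation and 231 held a candidate. The alternatives were other TSS distances and TSS sets, other matching distances and sequence windows, the stronger 50% of peaks, the strongest candidates outside the thresholded set as comparison, GC weighting and each replicate left out. The sequence search was tested on made-up sequences with planted copies. Site classes were checked at random positions of the annotation against a direct reading of it. Scripts ran in Python 3.11.15 with scipy 1.17.1, pandas 2.3.3, numpy 2.4.6 and, for figures, matplotlib 3.10.9.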

Additional observations from a re-analysis of the deposited data

How the results depend on the processing

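The share of thresholded peaks in autosomal introns, 26.9%, was 30.9% with a TSS distance over 250 bp, 20.7% with 1000 bp and 23.3% in the stronger 50% of peaks. Support in both replicates, 94.9%, was 88.0% within 100 bp, 97.1% within 500 bp, 96.5% by overlap, 97.3% in the stronger 50% and 57.1% among the strongest candidates of each replicate. The GC difference of -3.99 was -5.53 within 50 bp, -1.36 within 250 bp and -4.55 in the stronger 50%. Against only the strongest candidates outside the thresholded set it was -1.47, the soft-masked difference -5.46 (from 0.79), the first-intron difference 3.60, that of TGTTTAC 2.40 and that of GATAAG -1.997 (from 3.62), so the soft-masked and GATAAG differences changed sign; the cause was not tested. The first-intron difference was 14.96 for introns of any transcript, and that of TAATTA 0.0539 with GC weighted within 100 bp but 2.17 within 250 bp. TGTTTAC kept its direction in 13 of 13 alternatives (2.40 to 9.63). Several of these were added after the data were seen. They were the other TSS distances, protein-coding TSSs only, weighting by GC within 250 bp or TSS distance, 1 summit per host and the strongest sites of both replicates. Of genes, 14.1% held a member in the stronger 50%, and by candidates in place of genes the share was 7.10% and the nuclear receptor list turned to -1.77 from the background. With either replicate left out, the site differences named above kept their direction, TGTTTAC and first introns included. Without replicate 2, TTTATGG moved from -1.99 to -3.77, and AAAAAAAA (from 1.2 to -2.63) and CAGGTAG (from 0.396 to -0.445) changed sign. Several other sequences also changed sign with a replicate left out, all with a main Newcombe interval that included 0. Some gene lists, counted by genes against the background, changed sign too. Without replicate 1 the neuronal list turned from 7.10 to -3.19 and the patterning list from -2.62 to 0.979. Without replicate 2 the lipid list turned from -6.28 to 0.873. No paired analysis was possible because the study has 1 group. Leaving out the gene with most members of a list, added after the data were seen, turned the candidate share from above to below 7.10% for the Dpp, Wnt, Notch and Hedgehog, the Polycomb and the lipid lists. The limits are 2 replicates, unknown read depth and candidates ranked by the signal that separates the members from them.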
